A study of Homo sapiens with 6 samples.

Results

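Notch and Wnt signalling both rest on proteins that are made at the endoplasmic reticulum. NOTCH receptors at the cell surface are activated by membrane ligands such as JAG1, and Frizzled receptors (FZD) bind secreted Wnt proteins, which the membrane carrier WLS brings to the surface and which the secreted antagonist DKK1 opposes. In the cytosol, AXIN1 is a scaffold of the complex that marks β-catenin, the product of CTNNB1, for degradation. Wnt signalling to β-catenin is known for its role in liver zonation and in liver tumours, and JAG1 and Notch for bile duct formation.

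The results concern 10 mRNAs, chosen by gene symbol: 8 of membrane or secreted proteins (NOTCH1, NOTCH2, NOTCH3, JAG1, FZD5, FZD6, DKK1 and WLS) and, as a cytosolic contrast, CTNNB1 and AXIN1. They are 10 genes beside 8204 mRNAs with a site in any library, and 9 of them had at least 1 site. WLS had none in any of the 6 libraries, under its symbol, its older names or its RefSeq transcripts. The 9 mRNAs held 130 of the 72385 sites of the series.

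The study measured RNA bound to AEG-1, a membrane protein of the endoplasmic reticulum, in a human liver tumour line. The AEG-1-14 cells derive from HepG3, labelled as hepatoblastoma, and carry a stable transgene for AEG-1 tagged with HA at the C-terminal end, so all 6 libraries report on the tagged protein, and whether the line is 1 clone is not given. Anti-HA precipitates were made after UV at 254 nm (HITS-CLIP AEG1, 2 libraries) or 365 nm (PAR-CLIP AEG1, 1 library). The UV served to bond RNA to protein, and any labelling of the RNA for PAR-CLIP is not described here, so the methods may differ in more than wavelength. The negative controls were the same cells and precipitation without UV (2 libraries for HITS-CLIP and 1 for PAR-CLIP), and no library came from cells without the tag. Each library was a list of called sites, stretches of an mRNA with a log2 score by the authors. The read depth is not known, since no read counts were at hand. The labels do not say that the HITS-CLIP replicates were grown separately, so the SDs measure a spread between libraries that may be technical. The p-values compare these libraries only and do not measure that spread.

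The libraries held 6378 and 5651 sites in HITS-CLIP AEG1, 60085 in PAR-CLIP AEG1, 60 and 90 in the controls of HITS-CLIP, and 121 in that of PAR-CLIP. Of 10 markers of hepatocytes and hepatoblasts, 8 had a site in both HITS-CLIP AEG1 libraries, against 16.1% of the 8204 mRNAs. All 10 had one in PAR-CLIP AEG1, but so had 97.6% of the 8204 mRNAs. AFP, the fetal plasma protein, had 15 and 14 HITS-CLIP AEG1 sites and none in the controls. Of the same 10, 2 had sites in the HITS-CLIP controls and 3 in the PAR-CLIP control, against 1.15% and 0.804% of the 8204 mRNAs. ALB, or serum albumin, had 11 and 9 in the HITS-CLIP controls against 5 and 10 in HITS-CLIP AEG1, and 13 in the PAR-CLIP control against 3 in PAR-CLIP AEG1. Of 12 markers of other cell types (blood, endothelial, connective tissue, muscle and squamous), none had a site in both HITS-CLIP AEG1 libraries. CD14 had 1 and 0, and 3 of the 12 had PAR-CLIP sites.

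Some of the membrane and secreted members carried HITS-CLIP sites, and so did 1 of the cytosolic pair. NOTCH1, JAG1, FZD5 and DKK1, or 4 of 8, had a site in both HITS-CLIP AEG1 libraries, against 16.1% of the 8204 mRNAs and 6.56% of all 20056 protein-coding genes in the RefSeq table. CTNNB1 also had a site in both and AXIN1 in neither. No member had a site in just 1 replicate. In PAR-CLIP AEG1, 7 of the 8 and both cytosolic members had sites, against 97.6% of the 8204 mRNAs and 39.8% of the protein-coding genes. At a share of 97.6% presence says little about a member. The 4 members with PAR-CLIP sites alone were NOTCH2, NOTCH3, FZD6 and AXIN1.

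**Figure D1:**
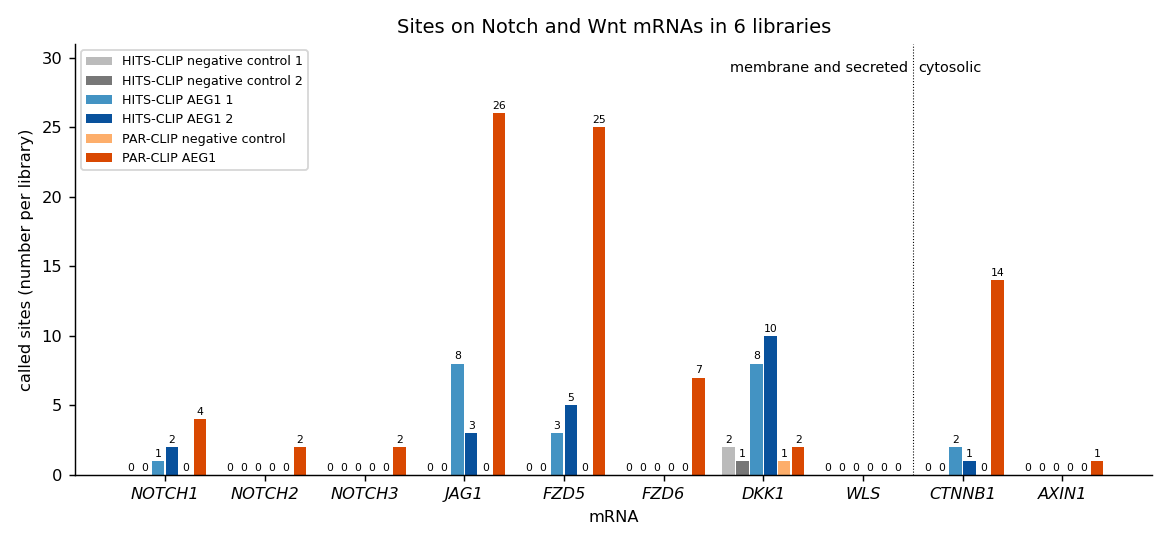
Number of called sites on each of the 10 mRNAs (y axis) in each of the 6 libraries (bars, with the number above each), membrane and secreted proteins left of the dotted line and cytosolic proteins right of it. DKK1 holds most HITS-CLIP AEG1 sites (8 and 10) but 2 in PAR-CLIP AEG1, which are wide and cover 1606 nt, and is the one member with sites in the controls.

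Together the 8 membrane and secreted members held 20 sites in each HITS-CLIP AEG1 library (mean 20 ± 0, SD, n = 2), against 2 and 1 in the controls (1.5 ± 0.707, SD, n = 2). All AEG1 values lay above all control values. The libraries as a whole differed in the same direction, with 6378 and 5651 sites against 60 and 90, so this is not particular to the members. As a share of all sites, the members held more in each control than in either AEG1 library, and their control sites were all on DKK1. The difference of 18.5 sites had p = 0.333 in a two-sided exact permutation test, the smallest p that 2 against 2 libraries allow. Without DKK1 the difference was 11 sites (same exact test, p = 0.333). CTNNB1 and AXIN1 together held 2 and 1 sites against 0 and 0, a difference of 1.5 (exact permutation test, p = 0.333). In 5 of the 10 members both HITS-CLIP AEG1 libraries held more sites than either control, against 15.5% of all mRNAs. PAR-CLIP AEG1 exceeded its control in 9 of 10, against 97.5% of all mRNAs, with 1 library on each side and no replicate check.

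DKK1, the secreted antagonist that binds the Wnt coreceptors, was the member with most HITS-CLIP sites and the fullest cover. It held 8 and 10 sites in HITS-CLIP AEG1 (mean 9 ± 1.41, SD, n = 2), 2 and 1 in the HITS-CLIP controls (1.5 ± 0.707, SD, n = 2), 2 in PAR-CLIP AEG1 and 1 in the PAR-CLIP control. By number of HITS-CLIP sites it ranked between 148 and 163 of the 2243 mRNAs that had one. Its sites covered 1260 and 1179 nt in HITS-CLIP AEG1, 123 and 50 nt in the controls, 1606 nt in PAR-CLIP AEG1 and 49 nt in the PAR-CLIP control. The 2 PAR-CLIP sites were wide, the first from nt 3 to 478 and the second from nt 479 to 1608.

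The cover of DKK1 began at the 5′ end of the mRNA in all 3 AEG1 libraries, at nt 3, 7 and 3 in HITS-CLIP replicates 1 and 2 and PAR-CLIP. The stretch where these sites open is shown, since it is covered in every AEG1 library. It was taken from RefSeq (GRCh38.p14, chr10:52314283-52314312, plus strand), with the bases common to all 3 AEG1 libraries, from nt 7, in capitals. The files give the transcript without a version, so its numbering may be shifted against this sequence.

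DKK1 nt 3 to 32: agagCTCTGTGCTCCCTGCAGTCAGGACTC

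On DKK1 the replicates placed their highest-scoring site at nearly the same bases. In replicate 1 it ran from nt 685 to 918 with a score of 13.31, and in replicate 2 from nt 682 to 911 with a score of 13.27, an overlap of 227 nt. The 5′ sites also matched, nt 3 to 335 (score 12.26) and nt 7 to 261 (score 11.72). Between them, replicate 1 had 1 site from nt 359 to 668 where replicate 2 had 3, so the same region can count as 1 or as 3 sites. Of the replicate 1 sites 7 of 8, and of the replicate 2 sites 10 of 10, overlapped a site of the other. Sites 3′ of the highest-scoring one scored lower in both replicates. The lowest scores were 7.75 at nt 1038 to 1076 (replicate 1) and 8.08 at nt 916 to 960 (replicate 2). Beyond these, scores reached up to 9.64 and 10.42.

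**Figure D2:**
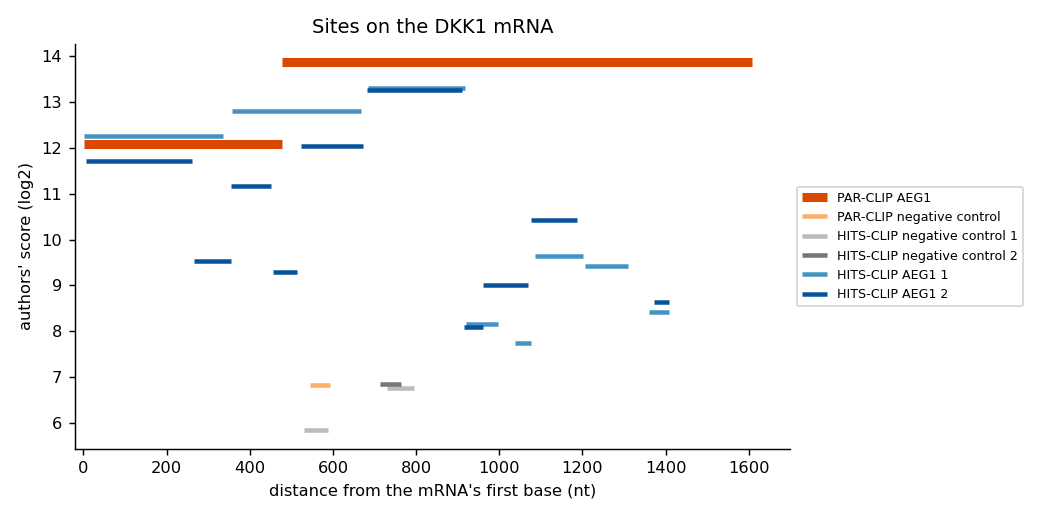
Sites on the DKK1 mRNA, each drawn from its start to its end (x axis, nt from the first base of the mRNA) at the height of its score (y axis, log2), by library. The 4 control sites lie between scores of 5.83 and 6.84, under the highest-scoring AEG1 sites, which reach 13.31, 13.27 and 13.87.

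All 3 controls had sites on DKK1, as had 6 of the 8204 mRNAs (0.0731%). The control sites lay inside the high-scoring AEG1 sites. The first HITS-CLIP control had sites at nt 531 to 589 (score 5.83) and nt 732 to 795 (6.75), the second at nt 715 to 764 (6.84), and the PAR-CLIP control at nt 546 to 594 (6.83). The HITS-CLIP AEG1 sites over these positions scored from 6.21 to 6.97 higher on the log2 scale, and the PAR-CLIP AEG1 site 7.04 higher. Summed over sites as 2 to the power of the score and divided by the lowest DKK1 value, the signal was 430 and 416 in HITS-CLIP AEG1 against 2.89 and 2.01 in its controls, and 339 in PAR-CLIP AEG1 against 2 in its control. Such sums move with how much of an mRNA was called, which the covered lengths above give. The whole libraries also differed, with 6378 and 5651 sites against 60 and 90 in HITS-CLIP and 60085 against 121 in PAR-CLIP. Whether the gap on DKK1 goes beyond that was not tested.

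JAG1, a membrane ligand of the Notch receptors, followed with 8 and 3 HITS-CLIP AEG1 sites (mean 5.5 ± 3.54, SD, n = 2), none in the controls and 26 in PAR-CLIP AEG1. In number of sites the replicates differed more on JAG1 than on any other member, and replicate 1 covered 398 nt against 131 nt. All 3 replicate 2 sites nonetheless overlapped a replicate 1 site. At nt 1819 to 1847 and nt 1820 to 1857 both scored 5.44, at nt 3714 to 3773 and nt 3732 to 3779 both scored 5.77, and at nt 2439 to 2513 and nt 2400 to 2444 they shared 6 nt and scored 6.44 and 5.44. One replicate 1 site, nt 2515 to 2538, was 24 nt long, the single member site of 25 nt or less in any library. PAR-CLIP sites covered 2904 nt between nt 296 and 5363, with the highest score, 7.84, at nt 1500 to 1884, and every JAG1 HITS-CLIP site lay on one.

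FZD5, a multi-pass Wnt receptor, held 3 and 5 HITS-CLIP AEG1 sites (mean 4 ± 1.41, SD, n = 2), none in the controls and 25 in PAR-CLIP AEG1. Here the replicates shared 1 position, nt 1245 to 1284 (score 8.16) in replicate 1 and nt 1223 to 1287 (8.65) in replicate 2. The other HITS-CLIP sites differed between the libraries, and all 8 overlapped a PAR-CLIP site. HITS-CLIP sites lay between nt 635 and 2209, whereas PAR-CLIP sites reached from nt 28 to 6148. Of the 25 PAR-CLIP sites 14 began beyond the last HITS-CLIP base, among them the highest-scoring (nt 2344 to 2446, score 9.01).

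The furthest HITS-CLIP base of FZD5 stood at 0.359 of the furthest PAR-CLIP base. Over the 1244 mRNAs with sites in both HITS-CLIP AEG1 libraries and PAR-CLIP the median of this ratio was 0.691, and 18.4% of them had a lower one. JAG1 stood at 0.705, CTNNB1 at 0.746, DKK1 at 0.876 and NOTCH1 at 0.521, so of these 5 members FZD5 had its HITS-CLIP sites most confined to the 5′ part. The ratio depends on the number of sites, which differed between the methods.

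NOTCH1, a single-pass receptor, had few sites in any library, with 1 and 2 in HITS-CLIP AEG1 (mean 1.5 ± 0.707, SD, n = 2), none in the controls and 4 in PAR-CLIP AEG1. A site common to the replicates lay at nt 4652 to 4701 (score 14.92) and nt 4623 to 4690 (16.17), and replicate 2 had another at nt 1000 to 1043 (14.59). The 4 PAR-CLIP sites, between nt 2214 and 9021, had scores of 13.00 or 13.01 and overlapped none of them. These were the 3 HITS-CLIP sites, of 43 on the members, without PAR-CLIP cover. NOTCH1 was also the one member on which both HITS-CLIP libraries had a higher top score than PAR-CLIP.

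**Figure D3:**
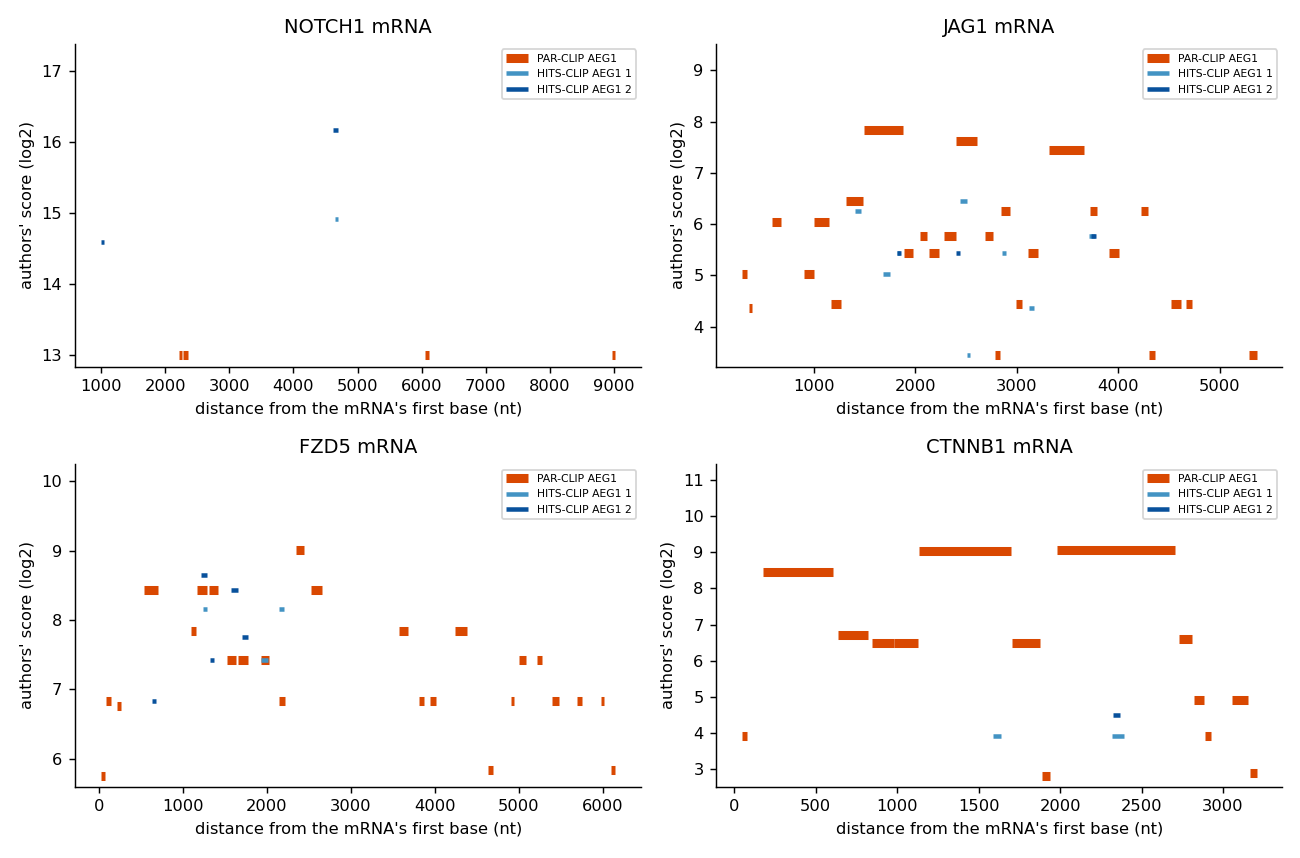
Sites on the NOTCH1, JAG1, FZD5 and CTNNB1 mRNAs, drawn from start to end (x axis, nt from the first base) at the height of their score (y axis, log2; each panel has its own range), with thin lines for HITS-CLIP AEG1 and thick lines for PAR-CLIP AEG1; the controls had no site on these mRNAs. HITS-CLIP sites of FZD5 end at nt 2209 while PAR-CLIP sites go on to nt 6148, and on CTNNB1 the PAR-CLIP sites are wide and score up to 9.06 over HITS-CLIP sites at 3.91 and 4.49.

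The other receptors were seen in PAR-CLIP AEG1 alone. FZD6, the second Frizzled receptor, had 7 sites over 598 nt between nt 570 and 1682, with scores from 5.97 to 8.86. NOTCH3 had 2 sites, at nt 1912 to 1978 (score 14.86) and nt 3294 to 3332 (13.86). NOTCH2 also had 2, at nt 367 to 407 and nt 827 to 880, both with a score of 11.00. NOTCH2 is uncertain, because near-identical partial copies of the gene exist and 1 of them, NOTCH2NLA, held 5 PAR-CLIP sites and none in the other libraries. With so few sites on NOTCH2 and NOTCH3 and no read depth, their absence from HITS-CLIP cannot be told from a signal too low to be called.

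CTNNB1, which encodes β-catenin, a cytosolic protein of adherens junctions and a transcriptional coactivator, had the same number of HITS-CLIP sites as NOTCH1 but more PAR-CLIP sites, 14 against 4, which covered 2755 nt against 251 nt. It held 2 and 1 sites in HITS-CLIP AEG1 (mean 1.5 ± 0.707, SD, n = 2), and none in the controls. The site shared by the replicates lay at nt 2317 to 2392 (score 3.91) and nt 2323 to 2370 (4.49), and replicate 1 had another at nt 1588 to 1635 (3.91). The PAR-CLIP sites lay between nt 49 and 3207 and scored up to 9.06, at nt 1984 to 2704. The PAR-CLIP sites over the HITS-CLIP sites scored 4.57 to 5.15 higher on the log2 scale. AXIN1 had a single site, in PAR-CLIP AEG1, at nt 295 to 359 with a score of 3.98.

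Scores were compared within an mRNA only, except where a processing alternative cut at each library's median score. The lowest score of a member was 2.83 on CTNNB1 and 13.86 on NOTCH3. The score's normalization was not given, so scores of different genes were not taken to share a scale of amount. Within some mRNAs equal values recurred across libraries. Of the 43 member scores in HITS-CLIP, 12 matched a PAR-CLIP score on the same mRNA within 1e-04, and the cause was not tested. These were on JAG1 (7 of 11), FZD5 (3 of 8) and CTNNB1 (2 of 3). DKK1 had 0 of 18 and NOTCH1 0 of 3, so on these mRNAs no score recurred in this way. They had only 2 and 4 PAR-CLIP scores to match, against 26 on JAG1, 25 on FZD5 and 14 on CTNNB1. Because a shared scale could not be assumed, summed scores (2 to the power of the score) were set against each other within each mRNA, PAR-CLIP over HITS-CLIP. A constant of the transcript cancels in this ratio.

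By this ratio CTNNB1 and DKK1 stood at opposite sides of the 1244 mRNAs. The log2 ratio of CTNNB1 was 6.04 against replicate 1 and 6.46 against replicate 2, and 98.9% of the mRNAs had a lower mean. For DKK1 it was -0.34 and -0.30, with 6.75% lower. The median mRNA had 2.54, with quartiles of 1.28 and 3.62. JAG1, at 2.11 and 3.49, and FZD5, at 2.64 and 1.89, were inside the quartiles, and NOTCH1, at 0.08 and -1.59, was low but rests on 7 sites. The HITS-CLIP side of the CTNNB1 ratio is as thin, with 2 and 1 sites against 1 and 2 on NOTCH1. The sums add 1 value per called site whatever its width, so the ratio moves with how signal was split into sites. DKK1 had 2 PAR-CLIP sites over 1606 nt, against 8 and 10 HITS-CLIP sites over 1260 and 1179 nt. Whether its low ratio comes from this was not tested. These values are a description with 1 PAR-CLIP library and without a test, and mRNAs with no HITS-CLIP site have no ratio. Library and method cannot be told apart for PAR-CLIP.

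**Figure D4:**
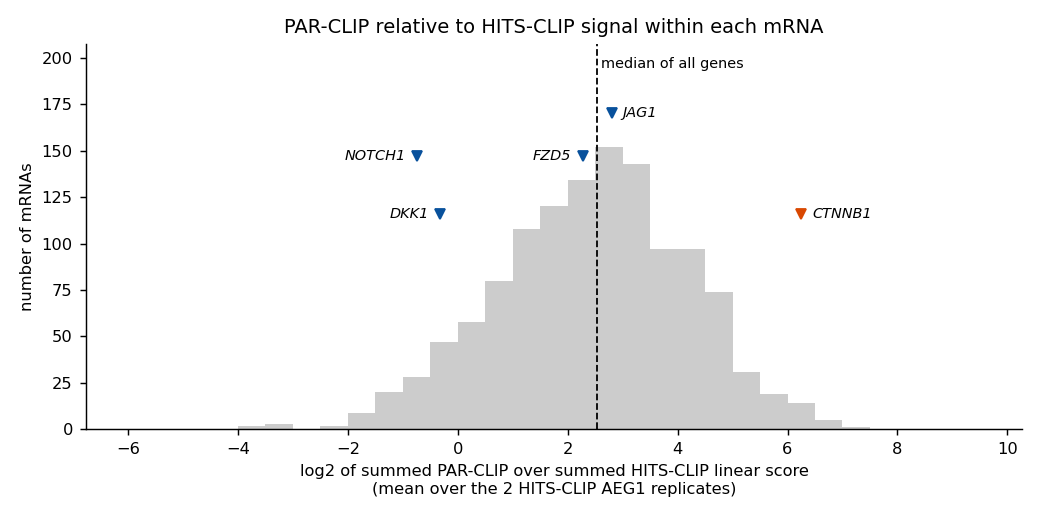
Histogram of the 1244 mRNAs with sites in both HITS-CLIP AEG1 libraries and PAR-CLIP AEG1 (y axis, number of mRNAs) by the log2 ratio of summed PAR-CLIP to summed HITS-CLIP linear score (x axis, mean over the replicates), with the median of 2.54 dashed and the 5 members marked by triangles whose height carries no value. DKK1 (-0.32) and NOTCH1 (-0.75) lie left of the bulk and CTNNB1 (6.25) right of it.

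Of the 22 replicate 1 sites 13 shared 1 nt or more with a replicate 2 site (59.1%, exact Clopper-Pearson 95% interval 36.4 to 79.3, counting error only), against 63.2% over all mRNAs. Without DKK1 it was 6 of 14 (42.9%, 17.7 to 71.1). In the other direction 16 of 21 did (76.2%, 52.8 to 91.8). Of all 43, 40 overlapped a PAR-CLIP site (93.0%, 80.9 to 98.5), against 90.3% over all mRNAs, and without DKK1 22 of 25 (88.0%, 68.8 to 97.5). DKK1 gave 18 of the 43, and its PAR-CLIP sites leave no gap in which a HITS-CLIP site could miss them. Sites of 1 mRNA are not independent.

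Measured as sites per 1000 nt up to the furthest PAR-CLIP base, DKK1 held 5.6 in HITS-CLIP AEG1 (mean of the replicates). The median of the 1244 mRNAs was 1.24, JAG1 stood at 1.03, FZD5 at 0.651, CTNNB1 at 0.468 and NOTCH1 at 0.166. Per length, DKK1 was the one member above that median.

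Over other genes of the pathways, mRNAs of membrane and secretory proteins had HITS-CLIP sites in both replicates in 12 of 64 cases (18.8%) and those of cytosolic and nuclear proteins in 2 of 50 (4%), beside 6.56% of all protein-coding genes. The order was the other way in PAR-CLIP AEG1, with 25 of 64 and 37 of 50, beside 39.8%. Many ligands and receptors of the lists had no site in any library, since 26 of the 64 had one at all against 37 of the 50, and whether they are transcribed in this line was not measured. Of genes with a PAR-CLIP site the counts are thus 12 beside 25 and 2 beside 37. Over all mRNAs with a PAR-CLIP site the count was 1244 beside 8009.

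In the Notch membrane and secretory list 6 of 20 genes had sites in both replicates. ADAM10, the protease that first cleaves ligand-bound Notch, held 12 and 11 sites and 23 in PAR-CLIP AEG1. NCSTN, a subunit of γ-secretase, held 5 and 4, and FURIN, the protease that matures Notch receptors, 6 and 2 with 1 site in the PAR-CLIP control. POFUT1, which adds fucose to Notch, held 1 and 3.

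The Wnt membrane and secretory list also had 6 genes, of 44. LRP5, a Wnt coreceptor and a target of DKK1, held 25 and 23 HITS-CLIP sites, more than any member, with 21 in PAR-CLIP AEG1 and 1 in the PAR-CLIP control. GPC3, a membrane-anchored glypican of fetal liver, held 14 and 15 and, like DKK1, few in PAR-CLIP AEG1 with 3. Few sites need not mean little signal, since the PAR-CLIP sites of DKK1 were wide and covered 1606 nt. LGR5, a receptor for R-spondins, held 2 and 1 with 23 in PAR-CLIP, the glypican GPC4 1 and 2 with 10, and the coreceptor LRP6 1 and 1 with 30. WNT2B had 1 site in each AEG1 library and 1 in the second HITS-CLIP control. FZD3 had 1 site in that control and none elsewhere. Controls had sites on 1.15% of all mRNAs in HITS-CLIP and 0.804% in PAR-CLIP.

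**Figure D5:**
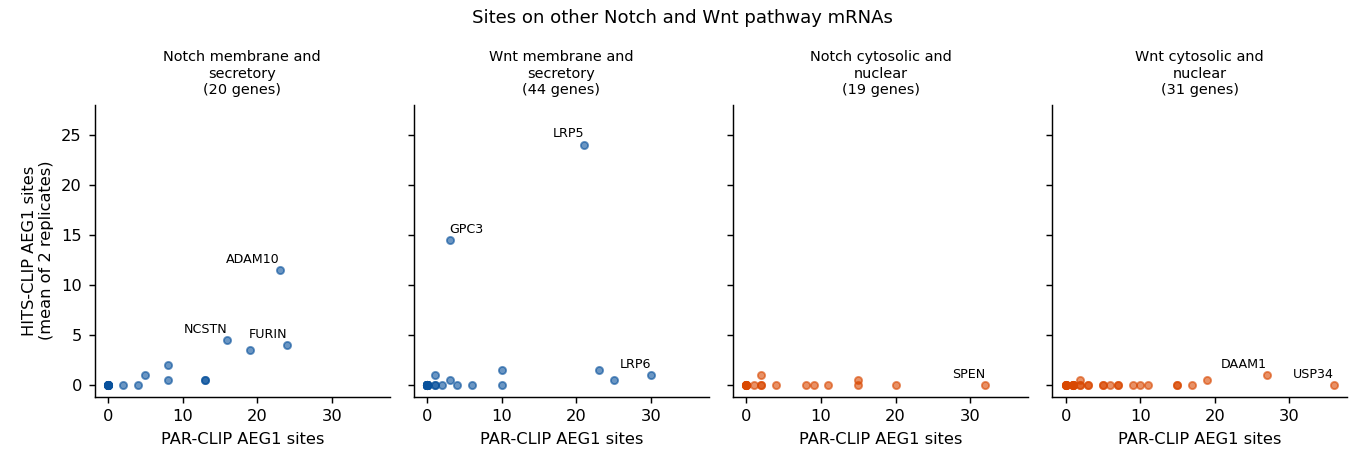
Sites on the mRNAs of other Notch and Wnt pathway genes, each gene a point by its PAR-CLIP AEG1 sites (x axis) and its HITS-CLIP AEG1 sites (y axis, mean of 2 replicates), in 4 lists. Membrane and secretory genes reach 24 HITS-CLIP sites (LRP5), whereas no cytosolic or nuclear gene exceeds 1, although USP34 has 36 PAR-CLIP sites.

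Cytosolic and nuclear genes rarely had HITS-CLIP sites in both libraries, with 1 of 19 in the Notch list and 1 of 31 in the Wnt list. In the Wnt list this was DAAM1, a formin of the planar polarity branch, with 1 and 1 and 27 PAR-CLIP sites. MIB1, the ubiquitin ligase that acts on Notch ligands, held 1 and 0 with 15, CSNK1D, a kinase, 0 and 1 with 19, and TCF7L1, a transcription factor, 1 and 0 with 2. SPEN, a corepressor, KDM5A, a histone demethylase, and ITCH, a ubiquitin ligase, had none in HITS-CLIP and 32, 20 and 15 PAR-CLIP sites. USP34, a deubiquitinase that acts on axin, had none and 36, and the kinase GSK3B of the β-catenin destruction complex none and 17. Numbers of sites were not divided by transcript length.

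By number of sites over the 6 libraries, the mRNAs most like DKK1 were EBP, a sterol isomerase, with 6 and 7 HITS-CLIP AEG1 sites and 2 in PAR-CLIP, P4HB, or protein disulfide isomerase, with 17 and 15 and 3, and TM9SF2, a multi-pass membrane protein, with 15 and 17 and 6. Their distances, Euclidean on log2 of sites plus 1, were 1.96, 1.99 and 2.01. The distance leaves out the width of sites, and the PAR-CLIP sites of DKK1 covered 1606 nt. CTNNB1 had 3 mRNAs at a distance of 0, POGLUT3, PPP4R1 and SLC16A3, each with 2 and 1 HITS-CLIP sites and 14 in PAR-CLIP. Such low numbers make identical patterns easy to find.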

How the data were processed

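The deposited files, 1 per library and without a header, give each site as RefSeq mRNA, gene symbol, start, end and score. The authors' deposited score was taken as log2 from its values. The submitters' processing notes name Bowtie. The score's normalization, the reference and the site caller were not given in the sources used here. Labels' protocols describe partial RNase I digestion, transfer to nitrocellulose and 50 nt single reads. Starts were taken as 0-based, because 34 sites start at 0, and are printed 1-based on the mRNA. Coding and untranslated parts were not analysed here. Symbols came from a RefSeq table (GRCh38.p14) in which 8142 of 8204 mRNAs matched by accession.

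Presence in HITS-CLIP AEG1 required a site in each of the replicates. Overlap meant at least 1 nt, and covered length counts each base once. Sums over sites used 2 to the power of the score. Library totals were compared with a two-sided exact permutation test, and shares carry exact Clopper-Pearson 95% intervals. No count model was run, as no read counts were at hand. The overlap code was tested on simulated intervals. Named are all 10 members, the 5 genes of each of 4 pathway lists with most HITS-CLIP AEG1 sites, pathway genes with a control site, and the 3 mRNAs of nearest pattern to DKK1 and CTNNB1. Some genes picked by this rule are left out here. Members and lists were chosen with earlier results of these data known. Python 3.11.15, pandas 2.3.3 and scipy 1.17.1 were used.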

Additional observations from a re-analysis of the deposited data

How the results depend on the processing

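The alternatives were sites longer than 25 nt, sites above their library's median score, at least 2 sites per gene, an overlap of 50% of the HITS-CLIP site, single replicates and, added after the data were seen, leaving out DKK1. The small counts of cytosolic genes moved most. With sites above the median score, 0 cytosolic members (difference 0 sites) and 1 pathway gene of the cytosolic and nuclear lists remained in both replicates. That cut sets scores of different genes against the same value, although they may share no scale. CTNNB1 reached 3.91 and 4.49 in HITS-CLIP, under the library medians of 6.34 and 6.39, so its loss cannot be read as weaker binding. With sites longer than 25 nt the count of the cytosolic and nuclear lists was 1. With at least 2 sites it was 0, the cytosolic members 0 and the membrane and secretory pathway genes 6. Leaving out 1 replicate gave 3 to 4 cytosolic and nuclear genes. The membrane and secreted members in both replicates stayed at 3 or 4 under each alternative tried, and members with PAR-CLIP sites at 8 or 9. With same-numbered libraries as pairs (replicate block), the differences stayed at 18.5 and 1.5 sites, with an exact sign-flip permutation p of 0.5, the smallest that 2 pairs allow. The libraries share a number only. Read depth is unknown, so an absent site sets no upper limit on binding.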

Other observations

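The summed PAR-CLIP to HITS-CLIP ratio also differed between genes with related roles outside the members. Of the Wnt coreceptors, LRP5 had a log2 ratio of 0.90 and 1.17 against HITS-CLIP replicates 1 and 2, and LRP6 had 5.60 and 4.60. GPC3 stood at -0.69 and -0.55, and its relative GPC4 at 3.72 and 2.89. The HITS-CLIP side was thin for LRP6, with 1 and 1 sites, and for GPC4, with 1 and 2. WNT2B stood at -2.00 and -1.58, on 1 site in each AEG1 library and with a control site. The 8 hepatocyte and hepatoblast markers with a ratio had a median of -1.08, from -3.48 to 1.08, on the same side of the median of 2.54 for all mRNAs as DKK1. The 12 membrane and secretory pathway genes had a median of 2.40, near that of all mRNAs. These values are descriptions without a test, and they move with how signal was split into sites.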
